A study of Rattus norvegicus with 4 samples.

Results

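The 10 genes described here code for the replicative helicase subunits Mcm2 to Mcm7, the sliding clamp Pcna, the primase subunit Prim1 and 2 enzymes that supply deoxynucleotides, Rrm1 and Tk1. They were taken by gene symbol from the gene tables of rat footpad skin, and all 10 were listed in each of the 4 libraries, out of 18957 gene and UniGene entries in the series. Cells in S phase use these products together. The MCM ring of 6 subunits is loaded on replication origins and then unwinds the DNA, primase starts each new strand, the clamp holds the polymerase on its template, and ribonucleotide reductase and thymidine kinase supply the building blocks. In skin such genes are active mainly in dividing basal keratinocytes and in cycling cells of the dermis and glands, and most of them are known targets of the E2F transcription factors.

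The study took hindlimb footpad skin of Sprague Dawley rats at 4 collection days to follow radiation dermatitis, which is skin injury caused by radiotherapy. Skin collected on day 0 came before any irradiation in the protocol, which lists days 1, 2, 4 and 5 for irradiation, each with 10 Gy from a 9 MeV electron beam (500 cGy/min). The day 3 skin thus followed 2 irradiations, and the day 6 and day 9 skin followed 4. The sample descriptions partly disagree with this, since the day 0 sample is described as taken on day 1 and the later ones name irradiation on day 2, 4 or 5 alone. The groups follow the sample titles. Each collection day was measured with 1 library, so no spread between animals was known, no test across animals could be made, and every 95% interval covers counting error only. Sex, age, animal number and hour of collection are not in the labels.

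Transcripts were counted as 21-base tags, each read from a CATG site near the 3' end of a transcript, so counts do not scale with transcript length. The libraries held 3360368 to 3592019 tags, of which 1952921 to 1982608 stood in genes. Levels are given in CPM, here scaled to gene counts by the TMM method. A gene was called higher or lower by size alone, which asked for at least a 2-fold ratio of scaled counts, 50 counts or more in whichever library was higher and a 95% interval that excluded 1. Keratinocyte genes marked the tissue as labelled, with 7 of 10 listed, and Krt1 and Krt10, the keratins of the layers above the basal one, had 21013 to 38510 and 4763 to 13717 counts.

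The most abundant tag of each gene is shown here because nearly every value below rests on it. The capitals mark the CATG site where the tag begins, and the sequences run 5' to 3' as they stand in the deposited files.
Mcm2: CATGctccttgtgctgacttt
Mcm3: CATGacttgagccgtgtttct
Mcm4: CATGttcctaaataaatgata
Mcm5: CATGgctttctttacagcaag
Mcm6: CATGtgactgcgggaattgct
Mcm7: CATGctgcacttttttattct
Pcna: CATGggacacttaaagtatta
Prim1: CATGgagcatttagtcaatgc
Rrm1: CATGtgacatagataggcata
Tk1: CATGttggctcccaaccatct
In all 10 genes this tag lay at the first CATG site from the 3' end. It held 97.3 to 100% of the copies of Mcm2, Mcm3, Mcm6, Mcm7, Pcna, Prim1 and Rrm1. The share was 87.7% for Tk1, 68.3% for Mcm4 and 68.1% for Mcm5, so the counts of the last pair depend more on how tags were assigned.

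Across the 10 genes, levels were highest in the day 6 library and lowest in the day 9 library. The highest level fell on day 6 for 8 of the 10 genes and on day 0 for Mcm4 and Mcm5. The lowest fell on day 9 for 8 genes and on day 3 for Mcm4 and Rrm1. Among the 9876 genes with a mean of at least 10 counts, 7.97% were highest on day 6 and lowest on day 9, against 7 of these 10. Such ranks partly lie within counting error. Of the 7, Mcm2, Mcm7 and Pcna were higher on day 6 than on day 0 beyond it, but not Mcm3, Mcm6, Tk1 and Prim1. Mcm2, Mcm7 and Prim1 were lower on day 9 than on day 3 beyond it, but not Mcm3, Mcm6, Pcna and Tk1. For Mcm7 the next lowest day was day 0, and day 9 was not below that beyond counting error (1.25-fold lower, 0.909 to 1.74). Without Mcm4, whose main tag was missing from 2 libraries, the genes summed to 726, 507, 948 and 374 counts in the day 0, 3, 6 and 9 libraries. These are levels of 362 (336 to 390), 252 (230 to 275), 487 (457 to 519) and 196 (177 to 217) CPM, each with its Poisson interval, and none of these intervals overlapped. Because the samples are bulk skin, fewer dividing cells and less of these RNAs per cell cannot be told apart.

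**Figure D1:**
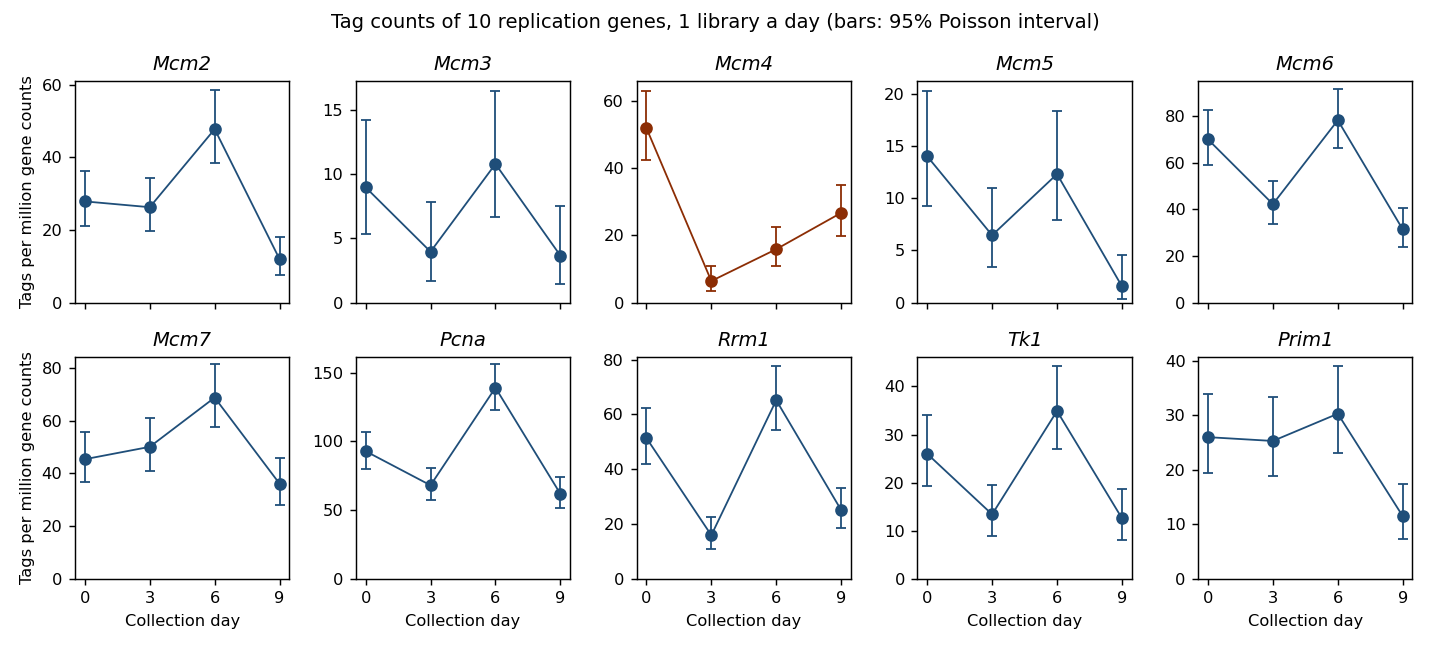
Level of each of the 10 genes in CPM of gene counts (vertical axis, from 0, own scale in each panel) by collection day (horizontal axis), with 1 library a day and bars for the 95% Poisson interval. Most panels peak at day 6 and most end lowest at day 9. Most also lie lower on day 3 than on day 0, but Mcm2 and Prim1 hardly differ there and Mcm7 does not dip. Mcm4, drawn in brown, had 104, 13, 31 and 51 counts.

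Of the 6 helicase subunits, Mcm2, Mcm3, Mcm6 and Mcm7 were highest on day 6 and lowest on day 9. Mcm6 had the most counts of them over the 4 libraries together, with 140, 85, 152 and 60 counts in the day 0, 3, 6 and 9 libraries, and Mcm7 had 91, 101, 134 and 69, more than Mcm6 on days 3 and 9. Mcm2 had 56, 53, 93 and 23 counts. Day 6 was the highest library for all of these 3 subunits and day 9 the lowest, while day 3 lay below day 0 beyond counting error for Mcm6 alone. Mcm5, which pairs with Mcm2 at the gate of the ring, had 28, 13, 24 and 3 counts. Mcm3 had 18, 8, 21 and 7 counts, the fewest of the 10 genes on days 0, 3 and 6, while Mcm5 had the fewest on day 9. Both stayed under 50 counts in every library and could not be called by size in any comparison.

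Pcna, which also serves DNA repair synthesis, had the highest counts of the 10 genes in each library, with 186, 137, 270 and 118. Rrm1, the large subunit of ribonucleotide reductase, had 103, 32, 127 and 48 counts and was the member apart from Mcm4 with its lowest level on day 3. Tk1, the cytosolic thymidine kinase of the salvage pathway, had 52, 27, 68 and 24 counts, so days 3 and 9 lay together below days 0 and 6. Prim1, the catalytic subunit of primase, had 52, 51, 59 and 22 counts and was set apart on day 9 alone. In the order of its 4 levels, from day 6 through days 0 and 3 to day 9, only the last step of Prim1 exceeded counting error. In each gene's own order from high to low, the steps that exceeded it were the first and the last for Mcm2, the first for Mcm7, the last for Mcm5 and the middle step for Mcm6, Rrm1 and Tk1. For Pcna they were the steps from day 6 to day 0 and from day 0 to day 3, for Mcm4 all 3, and for Mcm3 none.

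Day 3 against day 0 compared skin after 2 irradiations with skin before any. The ratio was below 1 for 9 of the 10 genes, with a median log2 ratio of -0.83, against -0.01 over the 9876 genes. Mcm2 and Prim1, both near 1, lay above it when scaled to all tags, at log2 ratios of 0.02 and 0.07. By the size rule 2 of the 8 genes with enough counts were lower, Rrm1 and Mcm4, and none was higher, against 7.88% lower and 8.54% higher among all 5342 genes with enough counts. For Rrm1 the day 3 count of 32 stood against 103 on day 0, a level 3.20-fold (2.16 to 4.97) lower on day 3. Mcm4 had 13 counts on day 3 against 104 on day 0 (7.78-fold lower, 4.50 to 15.6), a value that rests on its missing tag. The interval alone, without the 2-fold bound, lay below 1 for 6 of the 10 genes, where 20.5% of all 9876 genes did, and above 1 for none, where 19.8% did. Mcm6 was 1.65-fold (1.26 to 2.19) lower on day 3, Pcna 1.36-fold (1.09 to 1.71) and Tk1 1.92-fold (1.19 to 3.21). Mcm2, Prim1 and Mcm7 gave 1.06-fold (0.716 to 1.58) lower, 1.02-fold (0.683 to 1.54) lower and 1.1-fold (0.824 to 1.48) higher values. The interval of Rrm1 overlapped none of the intervals of Mcm2, Mcm7, Pcna and Prim1.

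Day 6 against day 0 compared skin after the last of the 4 irradiations with skin before any. Most ratios lay slightly above 1, for 8 of the 10 genes, and the median log2 ratio was 0.30 against 0.03 over all genes. None was higher by the size rule and only Mcm4 was lower, against 7.48% higher and 13.1% lower among 5296 genes. Mcm4 had 31 counts on day 6 against 104 on day 0, 3.22-fold (2.16 to 5.04) lower. Above 1 beyond counting error, though short of 2-fold, were 3 genes, where 20.6% of all 9876 genes were. Mcm2 was 1.70-fold (1.21 to 2.43) higher on day 6, Mcm7 1.51-fold (1.15 to 2.00) and Pcna 1.49-fold (1.24 to 1.81). For Rrm1 the value was 1.27-fold (0.971 to 1.66) higher, and for Mcm6 1.12-fold (0.883 to 1.42) higher.

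Day 9 against day 0 compared skin some days after the last irradiation of the protocol with skin before any. All 10 ratios were below 1, with a median log2 ratio of -1.09 against 0.00 over all genes. By the size rule 5 of the 8 genes with enough counts were lower and none higher, against 10.4% lower and 10.7% higher among 5345 genes. For Mcm2 the day 9 count of 23 stood against 56 on day 0, 2.29-fold (1.40 to 3.95) lower. Prim1 was 2.22-fold (1.34 to 3.89) lower on day 9, Mcm6 2.21-fold (1.63 to 3.06), Tk1 2.04-fold (1.25 to 3.50) and Rrm1 2.03-fold (1.44 to 2.94). These sit close to the 2-fold bound, and 3 genes pass with a prior count of 5. Of the others, Mcm5 had 3 counts on day 9 against 28 on day 0, too few for the rule, with a ratio 7.76-fold lower and an interval of 2.75 to 45.7. Pcna was 1.5-fold (1.19 to 1.91) lower on day 9 and Mcm7 1.25-fold (0.909 to 1.74) lower. Mcm4 was 1.93-fold (1.38 to 2.77) lower, in 2 libraries that both held its main tag.

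Day 6 against day 3 compared skin after all irradiations with skin between them. Ratios were above 1 for all 10 genes, with a median log2 ratio of 0.97 against 0.02 over all genes, and 3 genes higher by the size rule of 7 with enough counts. Among 5101 genes 2.88% were higher and 6.74% lower. For Rrm1 the day 6 count of 127 stood against 32 on day 3, 4.06-fold (2.77 to 6.26) higher. Tk1 was 2.58-fold (1.65 to 4.23) higher on day 6 and Pcna 2.04-fold (1.65 to 2.52) higher. The Pcna call ended when scaled to total gene counts (log2 ratio 0.98) or to all tags (0.89), which left 2 genes higher. Mcm6 and Mcm2 were 1.85-fold (1.41 to 2.44) and 1.81-fold (1.28 to 2.59) higher, short of 2-fold, and Prim1 gave 1.2-fold (0.809 to 1.78). Scaled to all tags in place of gene counts, the higher share of calls over all genes was 17.6% in place of 29.9% here, and 62.7% in place of 52% for day 3 against day 0.

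Day 9 against day 6 gave the most calls. Ratios were below 1 for 9 of the 10 genes, with a median log2 ratio of -1.37 against 0.00 over all genes, and 6 of 8 genes were lower by the size rule, where 4.37% of 5127 genes were lower and 10% higher. Mcm2 had 23 counts on day 9 against 93 on day 6, 3.90-fold (2.49 to 6.56) lower. Tk1 was 2.74-fold (1.72 to 4.63) lower on day 9, Prim1 2.59-fold (1.59 to 4.51) and Rrm1 2.58-fold (1.85 to 3.70). Mcm6 was 2.47-fold (1.83 to 3.41) lower and Pcna 2.24-fold (1.80 to 2.81) lower. Mcm7 stayed short of the bound at 1.90-fold (1.41 to 2.59) lower. The exception was Mcm4, with 51 counts on day 9 against 31 on day 6. Its interval was the only one above 1, where 19.4% of all 9876 genes lay. The comparisons with day 0 share that library, as those with day 6 share theirs, so they are not independent of each other.

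**Figure D2:**
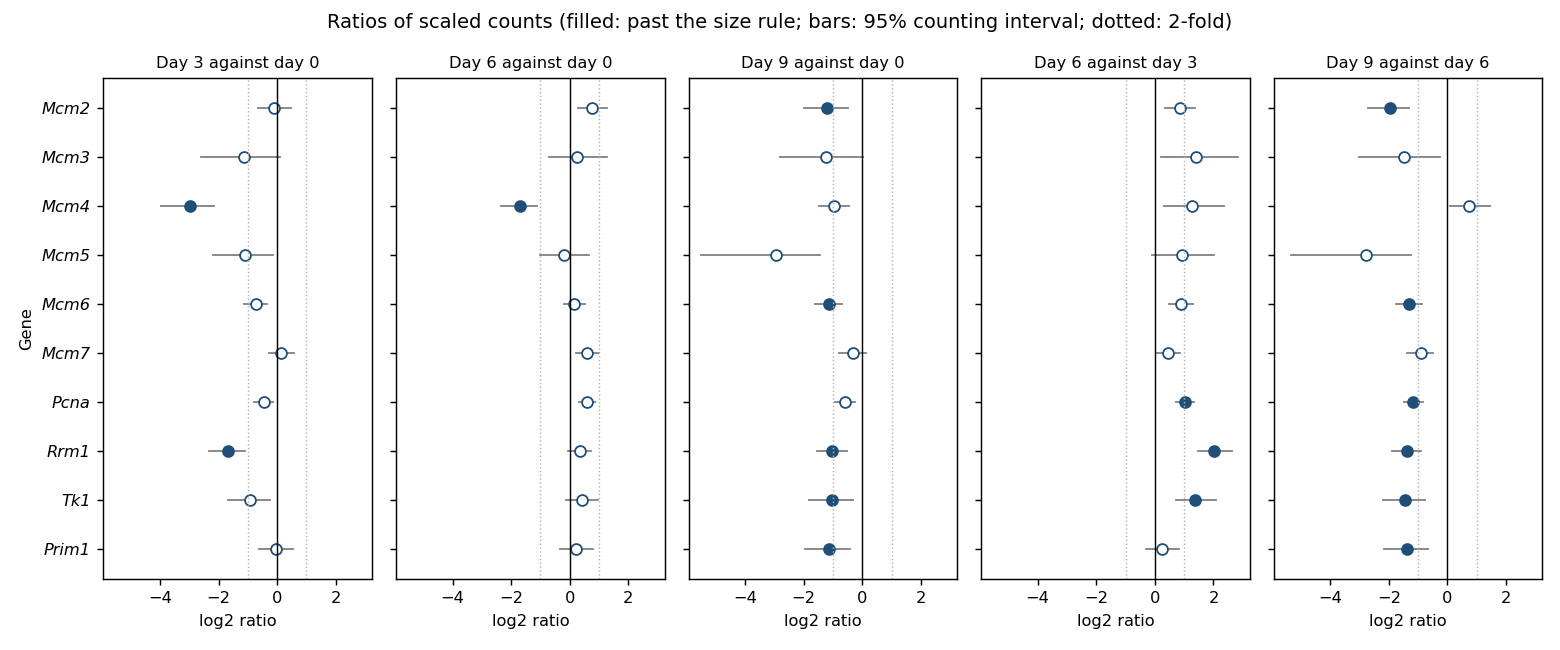
log2 ratio of scaled counts (horizontal axis, later day over earlier) for each of the 10 genes (vertical axis) in 5 comparisons of 1 library with 1 library. Filled points are past the size rule, bars are 95% counting intervals and dotted lines mark 2-fold; most points lie left of 0 on day 3 and day 9 against day 0 and on day 9 against day 6, and all lie right of 0 on day 6 against day 3.

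Mcm4, a helicase subunit of the same ring, had its days in another order, and its 4 assigned tags are shown because they account for its counts. Sites are numbered from the 3' end, and capitals mark the CATG site.
Mcm4, site 1: CATGttcctaaataaatgata
Mcm4, site 2: CATGctgtatgtctaattatg
Mcm4, site 3: CATGcatgctgtatgtctaat
Mcm4, site 4: CATGttccttggactagagtc
The tag of the first site had 98, 0, 0 and 38 copies in the day 0, 3, 6 and 9 libraries. It was thus missing from the day 3 and day 6 libraries, at least 32.8-fold and 31.7-fold lower than on day 0 with a floor of 3 counts. No tag that differed from it by 1 base was sequenced in any library. The tags of sites 2 and 3 begin 4 bases apart and share 17 bases, so they read the same stretch of the transcript. Together they had 0, 7, 21 and 9 copies, with none in the library where the first tag was most abundant. The tag of site 4 had 6, 6, 10 and 4 copies.

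Without its main tag Mcm4 had 6, 13, 31 and 13 counts, highest on day 6. Of these, sites 2 and 3 gave 0, 7, 21 and 9, and site 4 gave 6, 6, 10 and 4. Whether sites 2 and 3 were read in place of the first site was not tested, so these counts are no separate measure of Mcm4 RNA. On the counts without the main tag, an alternative chosen after the values were seen, day 6 was 4.99-fold (2.19 to 15.6) higher than day 0. Day 9 was 2.29-fold (1.19 to 4.87) lower than day 6. With and without the main tag the ratio of Mcm4 lay on opposite sides of 1 in 4 of the 5 comparisons, all but day 6 against day 3. Of the 3 comparisons with day 0, only that of day 6 had an interval excluding 1 without the main tag. Whether the missing tag follows the amount of Mcm4 RNA was not tested. For the 9 genes without Mcm4 the median log2 ratios were -0.72, 0.34 and -1.15 on days 3, 6 and 9 against day 0.

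**Figure D3:**
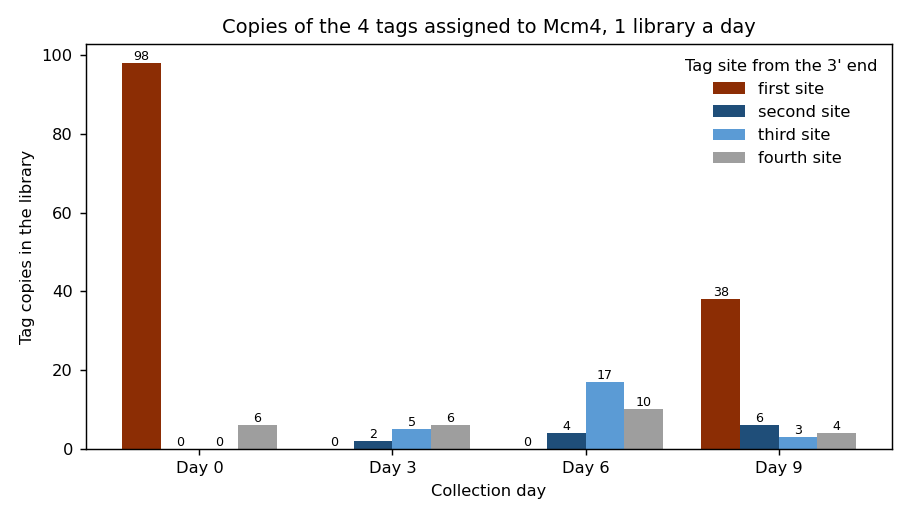
Copies (vertical axis, from 0) of the 4 tags assigned to Mcm4 in each library (horizontal axis, collection day), coloured by the position of the tag site from the 3' end. The first tag had 98, 0, 0 and 38 copies, and those of sites 2 and 3 together had 0, 7, 21 and 9.

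The Tk1 tag also had close relatives, which are shown with it because 1 or 2 base changes separate a rare tag from a very abundant one. Positions count from 1 at the 5' end of the tag, and the base of the Tk1 tag comes first.
Tk1: CATGttggctcccaaccatct
T5G: CATGgtggctcccaaccatct
C12A: CATGttggctcacaaccatct
T5G and C12A: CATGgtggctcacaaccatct
The tag with both changes stood in no gene and had 5930, 12109, 14189 and 15334 copies in the day 0, 3, 6 and 9 libraries. The tags with 1 change had 22, 52, 79 and 72 copies (T5G, in an entry with no symbol) and 12, 41, 40 and 38 copies (C12A, in no gene). The Tk1 tag itself had 44, 23, 63 and 20 copies, so it was lower on day 9 than on day 0 while its relatives were higher. Of 1223 other tags that differ by 2 bases from the abundant one, the median had 0 copies in each library. As many copies as the Tk1 tag were reached by 1 of them on day 0, 11 on day 3, 5 on day 6 and 16 on day 9. If all tags 1 base away were added to Tk1, its log2 ratio on day 9 against day 0 would be 0.70 in place of -1.03, and on day 3 against day 0 it would be 0.48 in place of -0.94. The other calls of Tk1 would be lost too, with 0.66 in place of 1.37 on day 6 against day 3 and -0.44 in place of -1.46 on day 9 against day 6. The share of misread copies in the Tk1 tag was not tested.

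The rest of the replication machinery was read from 7 lists with 97 genes, of which 77 were listed and 22 to 28 had enough counts in a comparison. Day 6 against day 3 gave 9 higher and none lower among 27 of these, where 2.88% of all genes were higher and 6.74% lower. Day 9 against day 6 gave 1 higher and 6 lower among 28, where 10% were higher and 4.37% lower. Day 3 against day 0 gave 0 higher and 1 lower among 22. Day 6 against day 0 gave 3 and 1 among 27, and day 9 against day 0 gave 1 and 2 among 25. Over all genes with enough counts, the shares higher and lower were 8.54% and 7.88% on day 3 against day 0. They were 7.48% and 13.1% on day 6, and 10.7% and 10.4% on day 9. Median log2 ratios over the 62 genes with a mean of at least 10 counts were -0.29, 0.24 and -0.27 on days 3, 6 and 9 against day 0. They were 0.50 on day 6 against day 3 and -0.56 on day 9 against day 6.

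Of the polymerase and clamp loader lists, 5 genes passed the size rule in at least 1 comparison. Pold2, an accessory subunit of DNA polymerase delta, had 225, 115, 230 and 76 counts in the day 0, 3, 6 and 9 libraries and was 2.81-fold (2.17 to 3.71) lower on day 9 than on day 0. Rfc2 and Rfc4, subunits of the loader that places Pcna on DNA, had 23, 20, 55 and 27 counts and 45, 45, 102 and 55 counts. Both were higher on day 6 than on day 3, Rfc2 by 2.80-fold (1.68 to 5.01) and Rfc4 by 2.33-fold (1.64 to 3.41). Rnaseh2a, the catalytic subunit of ribonuclease H2, had 94, 40, 55 and 31 counts and was 2.86-fold (1.91 to 4.49) lower on day 9 than on day 0. Pole3, a small subunit of DNA polymerase epsilon that also binds histones, ran the other way with 72, 37, 29 and 64 counts and was 2.23-fold (1.43 to 3.62) higher on day 9 than on day 6.

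Of the 11 listed genes of deoxynucleotide supply beyond Rrm1 and Tk1, 2 to 4 had enough counts in a comparison. Of 4 such genes 3 were higher on day 6 than on day 3, against 2.88% of all genes. Of 3 such genes 2 were lower on day 9 than on day 6, against 4.37%. Dut, which removes dUTP, had 110, 95, 206 and 73 counts and was 2.24-fold (1.75 to 2.89) higher on day 6 than on day 3. It was 2.76-fold (2.11 to 3.67) lower on day 9 than on day 6. Rrm2, the small subunit that works with Rrm1, had 37, 22, 57 and 54 counts. It was 2.64-fold (1.61 to 4.61) higher on day 6 than on day 3, and unlike Rrm1 its count on day 9 stayed close to that of day 6. Asf1b, a histone chaperone of replicating cells, had 20, 14, 60 and 13 counts and was 4.4-fold (2.46 to 8.99) lower on day 9 than on day 6. Nasp and Ssrp1, which handle histones, passed the rule once each, Nasp 2.14-fold (1.53 to 3.05) higher on day 6 than on day 3 and Ssrp1 2.05-fold (1.62 to 2.64) lower on day 9 than on day 6. Among 15 listed genes of base synthesis, 7 or 8 had enough counts in a comparison. Atic, an enzyme of purine synthesis, was the only one past the rule, with 34, 23, 51 and 20 counts. It was 2.27-fold (1.38 to 3.93) higher on day 6 than on day 3 and 2.46-fold (1.47 to 4.43) lower on day 9 than on day 6. Of the 9 listed licensing genes Orc4, an origin recognition subunit, was the only one to reach 50 counts and so the only one that could be called, with 21, 37, 41 and 61 counts, 3.00-fold (1.83 to 5.27) higher on day 9 than on day 0. No helicase activation gene of 11 listed reached 50 counts.

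**Figure D4:**
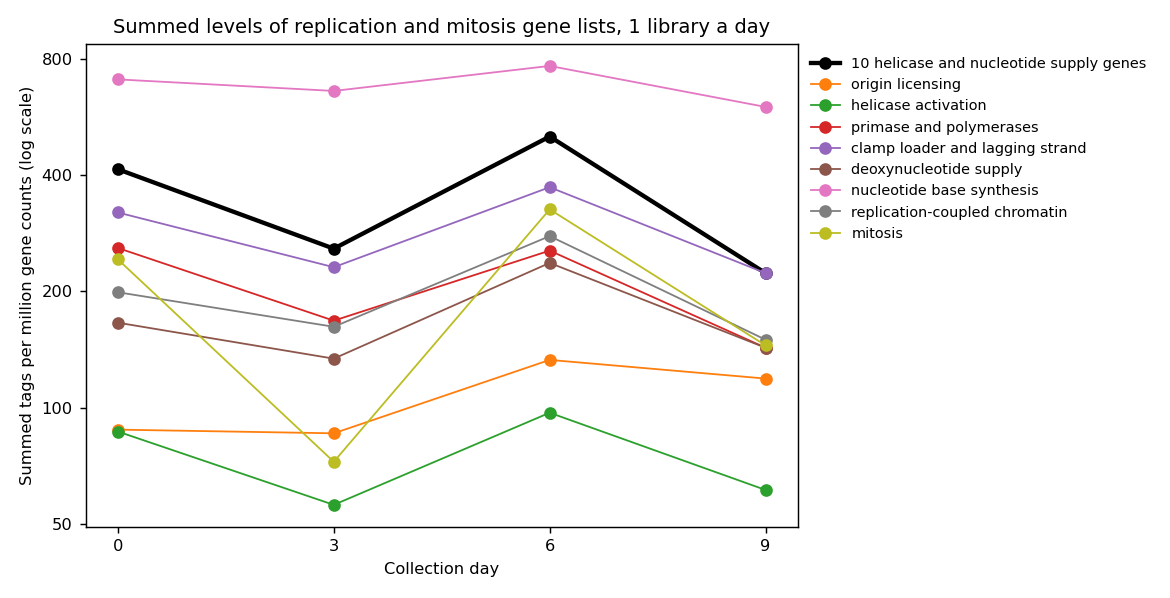
Summed level of each gene list in CPM of gene counts (vertical axis, log scale) by collection day (horizontal axis), with 1 library a day. The 10 helicase and nucleotide supply genes, in black, summed to 414, 258, 503 and 223, and every replication list shown had a higher sum on day 6 than on day 3 and on day 9.

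Mitosis genes had 3 lower calls on day 3 against day 0 among 3 genes with enough counts, where 7.88% of all genes were lower. The 14 listed genes summed to 242, 72.5, 326 and 145 CPM in the day 0, 3, 6 and 9 libraries. Stmn1, a microtubule regulator, had 166, 28, 148 and 37 counts. Cdk1, the kinase of mitotic entry, had 88, 37, 174 and 78 counts and Birc5, or survivin, had 54, 16, 71 and 32. On day 6 against day 3, 4 mitosis genes were higher of 4 with enough counts, among them Mki67, the proliferation antigen, at 5.47-fold (2.87 to 12.5). Over all genes 2.88% were higher in that comparison. The ratio between mitosis and replication lists was not tested.

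By shape over the 4 libraries, the genes nearest to the summed count of the 9 genes without Mcm4 included Tor2a, Rpa1, Dnajc9 and an entry with no symbol. Likeness was the root mean square difference of centred log2 levels, taken over 4666 genes with a mean of at least 50 counts that are not among the 10. It was 0.0667 for Tor2a, an ATPase of the torsin family with 61, 40, 70 and 29 counts. It was 0.125 for Rpa1, the large subunit of the single-strand binding protein, with 66, 50, 81 and 40 counts. Dnajc9, a histone co-chaperone, gave 0.125 with 253, 212, 318 and 129 counts. The median over the 4666 genes was 0.57, and the 10 genes themselves ranged from 0.108 for Mcm6 to 1.13 for Mcm4. The summed count contains the 9 genes other than Mcm4, so their values are not independent of it and cannot be set against that median.

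Promoters were read because 7 of the 10 genes were highest on day 6 and lowest on day 9, from the RefSeq table of the GRCr8 assembly, in which 9 of the 10 genes had an entry. The window was the 250 bases before each gene's start, and the letters searched on both strands were the E2F type sites TTTGGCGC, TTTCCCGC and TTTCGCGC, overlaps counted, and the CCAAT box. At least 1 E2F type match stood in 4 of the 9 windows, those of Mcm2, Mcm5, Mcm6 and Mcm7, and in 1.41% of all 33469 windows. CCAAT stood in 6 of the 9 and in 34% of all. The 4 with a match are shown in lower case with the E2F type letters in capitals, 5' to 3' along the strand of the gene. They lie on GRCr8 at chr4:122918095-122918344 (minus strand), chr19:13488563-13488812 (plus strand), chr13:42404353-42404602 (minus strand) and chr12:22163179-22163428 (minus strand).
Mcm2: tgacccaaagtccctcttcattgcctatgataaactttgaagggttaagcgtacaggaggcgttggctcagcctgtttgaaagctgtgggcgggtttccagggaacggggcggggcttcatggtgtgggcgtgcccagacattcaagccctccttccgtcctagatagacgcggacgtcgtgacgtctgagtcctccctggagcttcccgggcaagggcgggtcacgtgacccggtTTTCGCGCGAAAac
Mcm5: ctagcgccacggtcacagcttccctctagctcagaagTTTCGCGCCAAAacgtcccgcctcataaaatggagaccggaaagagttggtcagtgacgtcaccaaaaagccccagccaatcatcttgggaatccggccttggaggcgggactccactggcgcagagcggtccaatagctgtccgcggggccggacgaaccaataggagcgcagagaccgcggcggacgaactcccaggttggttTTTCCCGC
Mcm6: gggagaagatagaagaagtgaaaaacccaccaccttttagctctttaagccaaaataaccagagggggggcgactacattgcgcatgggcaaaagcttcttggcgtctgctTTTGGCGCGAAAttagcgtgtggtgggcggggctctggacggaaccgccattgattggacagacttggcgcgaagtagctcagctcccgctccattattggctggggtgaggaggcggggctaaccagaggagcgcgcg
Mcm7: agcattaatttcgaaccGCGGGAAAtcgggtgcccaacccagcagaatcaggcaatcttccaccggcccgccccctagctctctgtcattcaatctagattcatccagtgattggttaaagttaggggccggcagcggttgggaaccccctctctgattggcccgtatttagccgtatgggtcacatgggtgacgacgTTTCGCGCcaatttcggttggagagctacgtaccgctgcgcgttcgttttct
In Mcm2 and Mcm6 the capitals hold overlapping matches on both strands, as does the first run of Mcm5. A match is a description of these letters and not a bound site. Mcm3, Pcna, Tk1 and Prim1, highest on day 6 and lowest on day 9, had no E2F type match. Mcm5 had matches and was highest on day 0. Most of these genes are known E2F targets, so the share of windows with a match cannot speak to the order of days.

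Marker sums of other cell types also differed between the libraries. Skeletal muscle markers summed to 2295, 5043, 0 and 4595 CPM, and all 9, Myl1, Myh1 and Myh2 among them, were at 0 on day 6, the day when the replication genes were highest. Sweat gland markers summed to 235, 414, 62.2 and 273, and matrix genes of fibroblasts to 11133, 52182, 40037 and 37394. The 7 listed keratinocyte genes summed to 18644, 14897, 25947 and 19380, lowest on day 3 and highest on day 6. Most of this sum was Krt1, with 10487, 11609, 19785 and 15456 CPM, and the genes differed in their order of days. Krt1 and Flg were highest on day 6, Krt10, Tp63 and Col17a1 on day 0, Krt15 on day 3 and Krt14 on day 9. Adipocyte markers summed to 151, 599, 242 and 424, red blood cell genes to 17.5, 759, 53.4 and 313, and endothelial genes to 70.4, 78, 126 and 81.2. The endothelial genes differed, since Vwf (34.9, 36.2, 81.2 and 38.2) and Tek (19.5, 28.8, 33.4 and 23.6) were highest on day 6. Pecam1 (15, 11.9, 10.3 and 15.7) was lowest on that day. Macrophage markers ranged from 343 to 740 and lymphocyte markers from 37 to 48.7. All 7 listed macrophage genes had counts in every library, and the 4 listed lymphocyte genes had counts in 3 or 4 of the 4 in each. The part of these shifts in the replication gene values was not tested.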

How the data were processed

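Per the file headers, the authors deposited for each library a whole-number count per gene, the sum of the copies of its assigned tags that were seen at least 2 times in that library, and the sequenced tags themselves. The deposited column headed TPM holds CPM values relative to all such tags. In no gene did sums, copies or CPM values depart from this by more than 0.006 CPM. The submitters' processing notes name the assembly Rnor 6.0, and the aligner is not given in the sources used here. The 10 genes and all lists were chosen with earlier results of these data known.

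Counts were joined by gene identifier and scaled by TMM factors (edgeR 4.0.16, R 4.3.3). Ratios used a prior count of 0.5 and exact 95% Clopper-Pearson intervals (scipy 1.17.1), and levels exact Poisson intervals. Tags are not independent molecules, so both cover counting error only. With 1 library a day neither edgeR nor DESeq2 (1.42.0, size factors only) can test across animals. The procedure was tested on simulated data. Named genes were the 10, those past the size rule in the other lists (at most 4 per list, comparison and direction), and the 5 nearest in shape. A few of these named genes are not reported here. Alternatives changed the scaling, count floor, prior count, fold, tags summed and genes entering.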

Additional observations from a re-analysis of the deposited data

How the results depend on the processing

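Of the 40 median log2 ratios recomputed, all stayed close to the reported value, within the median reach of the genes' intervals. Counts of the 10 genes called higher stayed within 1.5 times the reported value 54 times and moved 6 times, and those called lower 50 and 10 times. With a 1.5-fold bound, 4 genes were lower on day 3 and 2 higher on day 6 against day 0, 5 were higher on day 6 against day 3, and 1 was higher on day 9 against day 6. Without Mcm4, or without its most abundant tag (chosen after seeing the data), 1 gene was lower on day 3 and 0 on day 6 against day 0. Of the 5 genes lower on day 9 against day 0, 2 stayed with a floor of 100 counts, and 3 with a prior count of 5 or with tags 1 base away. The most abundant tag alone also gave 3 lower genes, Mcm2, Mcm6 and Mcm4. Of these, Mcm4 (log2 ratio -1.29) was not among the 5. Adding tags 1 base away gave 1 higher gene on day 6 against day 0. The floor of 100 left 3 lower genes on day 9 against day 6, and a floor of 10 or none gave 5 higher on day 6 against day 3. Fewer or more genes are eligible under another floor, and otherwise the cause was not tested. Among ratios past the size rule, those that changed sign were the log2 ratio of Tk1 on day 9 against day 0 (0.70 with tags 1 base away) and those of Mcm4 without its main tag on day 3 (1.05) and day 6 (2.32) against day 0. Below the rule, Mcm4 without its main tag also changed sign on day 9 against day 0 (1.12) and against day 6 (-1.19), as did Tk1 with tags 1 base away on day 3 against day 0 (0.48). Mcm2 (0.02) and Prim1 (0.07) did so on day 3 against day 0 with scaling to all tags, and Prim1 (0.05) with its most abundant tag alone. Over all genes, calls in the 5 comparisons numbered 877, 1090, 1129, 491 and 739, with day 0 as the base for days 3, 6 and 9, then day 6 against day 3 and day 9 against day 6. With a floor of 100 counts they numbered 493, 605, 646, 260 and 404, with no floor 2229, 2722, 2632, 1652 and 2098, and with a 1.5-fold bound 2024, 2138, 2289, 1265 and 1687. Scaling to all tags moved the median log2 ratio over all genes to -0.12 on day 6 against day 3. No paired analysis was possible because each day has 1 library. Depth limits Mcm3 and Mcm5 most.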

Other observations

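Of the 16 p53 target genes, all listed, 6 of 7 with enough counts were higher on day 3 than on day 0, 7 of 8 on day 6 and 8 of 10 on day 9, and none was lower. Over all genes 8.54%, 7.48% and 10.7% were higher in these comparisons. The list summed to 662, 2322, 2476 and 2195 CPM in the day 0, 3, 6 and 9 libraries, and most of this sum came from a few genes, Ccng1 with 303, 1885, 1776 and 1831 counts among them. Other genes of the list had fewer counts on day 9 than on day 0, such as Xpc, a DNA damage sensor, with 40, 18, 27 and 15. Cdkn1a, the p21 inhibitor that binds Pcna and cyclin-dependent kinases, had 291, 1197, 1303 and 947 counts, so the library with the highest Pcna also had the highest Cdkn1a. G1/S control genes, with 20 of 25 listed, gave a single call among 7 with enough counts: E2f6, a repressor of the E2F family, had 99, 159, 81 and 173 counts and was 2.17-fold (1.66 to 2.87) higher on day 9 than on day 6.

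The summed count of the 9 genes without Mcm4 was also set against each of the 7 listed keratinocyte genes, a comparison chosen after the values were seen, and the order of days depended on the gene. The ratio was highest on day 3 for 3 genes, on day 6 for 3 and on day 0 for 1, and lowest on day 0 for 3, on day 9 for 3 and on day 3 for 1. Against Krt14, the keratin of basal keratinocytes, it was 246% (215 to 283), 352% (292 to 427), 297% (261 to 338) and 106% (91.4 to 123) in the day 0, 3, 6 and 9 libraries. Against Col17a1, a collagen of basal cell anchorage, it was 92.1% (83.2 to 102), 120% (105 to 137), 203% (182 to 227) and 96.6% (83.6 to 112). Tp63, the transcription factor of basal cells, gave 85.9% (77.7 to 95), 98.8% (87.2 to 112), 203% (182 to 227) and 88% (76.4 to 101). Krt14 itself had 295, 144, 319 and 353 counts, fewer than Tp63 in every library. Whether its assigned tags hold all of its copies was not tested, so the size of its ratio is uncertain.

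Mcm4 was the only gene of the series whose most abundant tag was at 0 on days 3 and 6 with at least 30 copies in each of the other libraries. For the other 5 pairs of libraries the number of such genes was 0 to 3.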
